A study of Mus musculus with 6 samples.

Results

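Proliferating mesenchymal cells of the mouse bladder mucosa were taken from single-cell RNA sequencing tables by a gate on raw UMI counts, where a UMI (unique molecular identifier) marks 1 captured mRNA molecule. Cells with over 500 genes qualified when the matrix genes Col1a1, Col1a2, Col3a1 and Dcn summed to at least 10 UMIs, to more than 2 times the keratins Krt5, Krt7, Krt8, Krt15, Krt18 and Krt19, and to more than the muscle genes Myh11, Des and Cnn1. They also had to hold 0 UMIs of Ptprc and Pecam1, which mark leukocytes and endothelial cells. Of 56629 barcodes, 55399 had over 500 genes and 10854 passed this mesenchymal gate. Among these, 157 cells had at least 3 UMIs summed over Top2a, Mki67, Birc5 and Ube2c and are called proliferating, and the other 10697, with at most 2, are called low-proliferation cells.

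The study profiled bladder mucosa peeled from the muscle layer of wild-type C57BL/6 mice aged 8 weeks, with 2 libraries per condition and several mice of both sexes in every group. How the mice were divided between libraries is not given in the sources used here. Healthy mice had received no CPP (cyclophosphamide, a drug whose metabolites injure the urothelium from the urine), acutely injured mice were taken 48 hours after CPP, and chronically injured mice had received 4 rounds of CPP over 11 days and were taken 48 hours after the last. CPP acts on the whole animal and on dividing cells in general, so the injured groups are not limited to 1 cell type. Libraries were prepared with a droplet-based 3′ assay, and the tables hold raw UMI counts per gene and cell.

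Stromal cells of the bladder lamina propria produce collagens and proteoglycans and signal to the urothelium above them. Fibroblasts of its deeper layer carry Cd34 and Mfap5, whereas the myofibroblasts beneath the urothelium carry the contractile gene Acta2 and the carbonic anhydrase gene Car3. A dividing cell first copies its DNA in S phase. In G2 and mitosis (G2/M) it then expresses genes that act on the chromatids, the spindle, the kinetochore and the anaphase-promoting machinery, among them Top2a, Birc5 and Ube2c.

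The 6 libraries held 54604109 to 111985678 UMIs, with medians of 5530 to 9138 UMIs and 1767 to 2274 genes per barcode. The gated mesenchymal cells were 36.5% of the cells with over 500 genes in acute replicate 2 and 2.32% in chronic replicate 2, so the libraries differ widely in how many stromal cells they hold. Libraries shared between 36 and 229 barcodes with each other, and 7 barcodes of proliferating mesenchymal cells also occurred in another library, 0 of them as another proliferating mesenchymal cell. Libraries are the replicates throughout, and permutation p-values measure only the spread between these libraries. Those of the gene tests also rest on a spread estimated over all genes together. The test of proliferating against low-proliferation cells sets aside differences between libraries that both kinds of cells share.

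Proliferating mesenchymal cells were found in every library, and their share of the gated cells ranged from 0.384% to 5.59%. Healthy replicate 1 held 26 of 2013 gated cells (1.29%, 95% Wilson interval 0.883 to 1.89) and healthy replicate 2 held 7 of 1823 (0.384%, 0.186 to 0.790). Acute replicate 1 held 30 of 537 (5.59%, 3.94 to 7.86) and acute replicate 2 held 84 of 5058 (1.66%, 1.34 to 2.05). Both acute libraries lay above both healthy libraries, acute replicate 2 only narrowly above healthy replicate 1. Among gated cells with at most 2 keratin UMIs this order was lost, with 0.744% in acute replicate 2 and 1.25% in healthy replicate 1. Chronic replicate 1 held 9 of 1299 (0.693%, 0.365 to 1.31) and chronic replicate 2 held 1 of 124 (0.806%, 0.142 to 4.43). The chronic libraries lay between the 2 healthy ones. These intervals cover counting error only.

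The mean share was 3.62% ± 2.78 (SD, n = 2 libraries) after acute injury and 0.838% ± 0.642 in healthy mucosa, a difference of 2.79 percentage points. The exact two-sided permutation test gave p = 0.33, the smallest that 2 libraries against 2 allow, so the comparison cannot reach 0.05. The difference was 1.4998 points with at most 2 keratin UMIs (exact permutation p = 0.667) and 1.96 without doublet calls. The chronic mean of 0.750% ± 0.0803 differed from the healthy mean by −0.0881 percentage points (exact permutation p = 1). When every cell was thinned to 4000 UMIs and shallower cells were left out, the shares were 1.11% and 1.01% in the healthy, 4.38% and 2.14% in the acute and 4.62% and 1.35% in the chronic libraries. The thinned value of chronic replicate 1 rests on 3 of 65 cells, and 1234 of its gated cells were too shallow to enter.

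Urothelial cells with the same proliferation UMIs were counted for comparison. Their share was 1.32% and 0.277% in the healthy libraries, 20.6% and 6.75% in the acute and 2.38% and 3.47% in the chronic libraries. The ratio of the urothelial to the mesenchymal share was thus 1.02 and 0.722 in healthy mucosa, 3.69 and 4.07 after acute and 3.43 and 4.31 after chronic injury. All 4 injured libraries had a higher ratio than both healthy libraries. Some ratios rest on few proliferating mesenchymal cells, 7 in healthy replicate 2, 9 in chronic replicate 1 and 1 in chronic replicate 2. The mesenchymal share of chronic replicate 2 had a Wilson interval of 0.14% to 4.43%, so its ratio is poorly fixed. A test of this ratio and the pooling of acute and chronic libraries were not among the planned comparisons. With acute and chronic libraries pooled as injured, the mean log2 ratio was 1.95 ± 0.146 (SD, n = 4). It was −0.22 ± 0.36 (SD, n = 2) in the healthy libraries. These SDs describe the spread between libraries and not the counting error of each ratio. The exact two-sided permutation p of 0.0667 is the smallest this design gives. After thinning to 4000 UMIs the groups overlapped, with a ratio of 0.329 in chronic replicate 1 and an exact permutation p of 0.267.

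**Figure D1:**
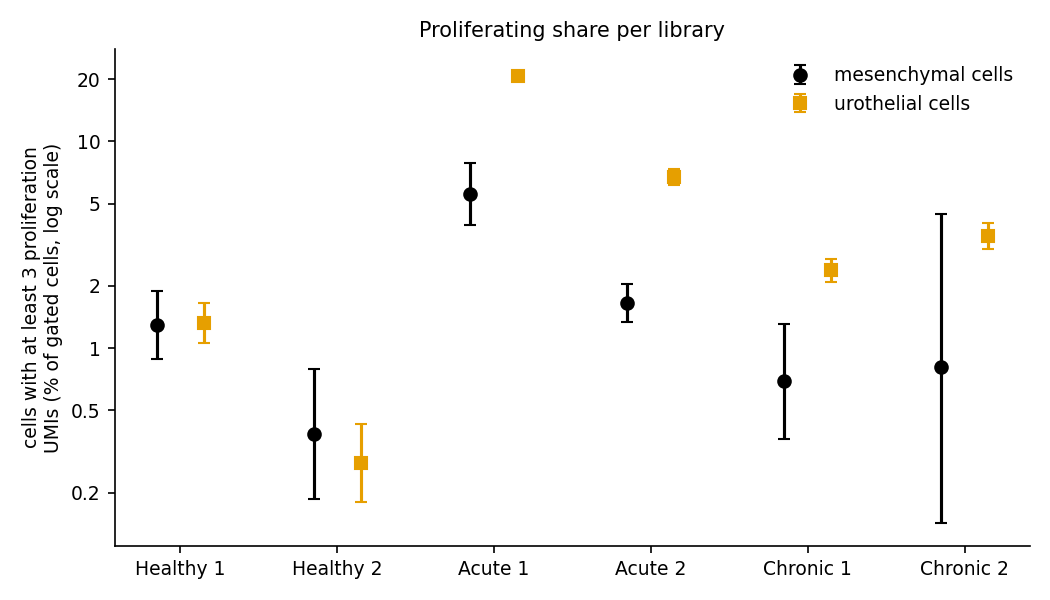
Share of gated cells with at least 3 proliferation UMIs in each library (percent, log axis), for mesenchymal cells (black circles) and urothelial cells (orange squares), with 95% Wilson intervals. The mesenchymal share is highest in acute replicate 1 (5.59%), and the urothelial share lies above the mesenchymal one in all 4 injured libraries, with overlapping intervals in chronic replicate 2.

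The 4 genes that chose the cells are given as a description. The proliferating cells held a median of 10 and up to 47 of these UMIs, and 123 of the 157 held at least 5. Birc5, the survivin subunit of the chromosomal passenger complex, was seen in 136 cells, Ube2c, the ubiquitin-conjugating enzyme of the anaphase-promoting complex, in 134, Top2a, the topoisomerase that untangles sister chromatids, in 132 and Mki67 in 76. All 4 genes were seen together in 51 cells and a single one of them in 8. At the threshold, 21 cells had exactly 3 of these UMIs and 45 low-proliferation cells had exactly 2. S-phase and G2/M genes other than these 4 took up 66.5 of 10000 UMIs in the former and 25.8 in the latter, against 10.4 in gated cells with 0 proliferation UMIs and 99.0 in those with at least 5. The cells just outside the gate thus lay between the cells without proliferation UMIs and those just inside.

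The proliferating cells were deeper than the rest of their gate. Their median UMI counts were 7232.5 and 6578 in the healthy, 6693 and 8593.5 in the acute and 3126 and 8029 in the chronic libraries, against 5025, 3238, 4655, 4377.5, 2501.5 and 4174 in the low-proliferation cells. Every comparison of shares of cells with a UMI is therefore also a comparison of depths, and the tests of gene levels are given with an alternative in which each proliferating cell was set against the 3 low-proliferation cells of its library nearest to it in total UMIs.

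The stromal identity of the cells was seen beyond the genes of the gate. Vim, the intermediate filament of mesenchymal cells, was detected in 155 of the 157 cells, and Sparc, a collagen-binding matrix protein, in 156. Among 2167 proliferating urothelial cells, which were deeper (median 13742 UMIs against 7412), Vim was detected in 17.7% and Sparc in 45.4%, so Sparc separates the cell types less well. Dcn was detected in all 157 cells and Col1a1 in 151, both as genes of the gate. The label's other cycle marker, Stmn1, which destabilizes microtubules and was not used by the gate, was detected in 147 (93.6%), against 17.2% of the low-proliferation cells. The gate did not use Vim, Sparc and Stmn1, while the collagen genes were fixed by the gate. Vim and Sparc were about as frequent in the low-proliferation cells, at 92.3% and 99.1%. The urothelial cells were chosen for more keratin than matrix UMIs, which favours fewer stromal UMIs in them. Stmn1 moves with the cell cycle, so the choice of the cells favoured its direction. These shares therefore describe the cells and do not test the label.

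Markers of the deeper fibroblasts and of the myofibroblasts were both present. The shares given here pool the cells of all libraries, which differ in their mix. Pi16, a marker of adventitial fibroblasts, was detected in 103 cells (65.6%, against 67.1% of low-proliferation and 14.8% of proliferating urothelial cells). Within libraries its share was lower than in the low-proliferation cells only in healthy replicate 2 (85.7% against 95.8%). It was higher in the others, from 51.2% against 49.8% in acute replicate 2 to 96.2% against 73.5% in healthy replicate 1 and 100% against 35.8% in the single cell of chronic replicate 2. Lum, which encodes the proteoglycan lumican, was detected in 89 cells, Cd34 in 69 and Mfap5 in 69. Tcf21, a transcription factor of stromal progenitors, was detected in 107 cells (68.2%, against 74.7% and 5.86%). Foxf1, a mesenchymal factor under hedgehog control, was detected in 90 (57.3%, against 42.6% and 3.05%). The receptor gene Pdgfra was detected in 75 (47.8%, against 37.5% and 2.58%). Car3 was detected in 97 (61.8%, against 53.6% and 14.7%) and Acta2 in 85 (54.1%, against 41.3% and 8.31%). All of these pooled shares lay above those of the proliferating urothelial cells, although the urothelial cells were the deeper ones. The pools also differ in their mix of libraries. For Car3 the order held in the healthy and acute libraries, with 84.5% against 56.3% in acute replicate 2. It was reversed in the chronic libraries, at 0% of 9 cells against 2.67% and 0% of 1 cell against 5.23%. Acta2 was reversed in chronic replicate 2, at 0% against 3.49%.

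A lineage call was made for each cell from the gene pairs that the study names, myofibroblast-marked where Acta2 and Car3 together had more UMIs than Cd34 and Mfap5 together, and fibroblast-marked where the reverse held. It assigned 85 proliferating cells to the myofibroblast side and 66 to the fibroblast side, with 3 tied and 3 without any of the 4 genes, and 36 cells held UMIs of both pairs. Myofibroblast-marked cells made up 40.0% of the proliferating cells with a marker and 51.5% of the low-proliferation cells in healthy replicate 1, and 14.3% and 23.0% in healthy replicate 2. They made up 28.6% and 31.5% in acute replicate 1, and 78.6% and 75.6% in acute replicate 2. In chronic replicate 1, 0 of 9 proliferating cells were myofibroblast-marked (upper 95% Wilson limit 29.9%) against 8.39% of the low-proliferation cells, and the single cell of chronic replicate 2 was fibroblast-marked, against 86.2% myofibroblast-marked among the low-proliferation cells. The share was lower in the proliferating cells of every library but acute replicate 2, where it was slightly higher. Among gated urothelial cells with a marker, the same call gave 90.5% myofibroblast-marked in acute replicate 2 and 20.2% to 55.5% elsewhere. Acta2 and Car3 took up 0.834 of 10000 UMIs in those of acute replicate 2, against 19.7 in its proliferating mesenchymal cells.

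In the 3 libraries with at least 10 proliferating cells, the proliferating minus low-proliferation differences were −11.5, −2.98 and 3.02 percentage points, with a mean of −3.81 ± 7.28 (SD, n = 3). The exact sign-flip permutation test gave p = 0.75, where 0.25 is the smallest that 3 pairs allow. Against low-proliferation cells nearest in UMIs the differences were −20.8, −11.2 and −15.1, with a mean of −15.7 and an exact permutation p of 0.25. Seen from the other side, 0.993% of the myofibroblast-marked and 1.41% of the fibroblast-marked gated cells were proliferating in healthy replicate 1, 4.97% and 5.76% in acute replicate 1 and 1.81% and 1.62% in acute replicate 2. The Wilson intervals of both lineages overlapped in each of these libraries.

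Other cell types were looked for by marker lists. The 6 lymphocyte markers had 0 UMIs in the proliferating cells of every library. The 10 urothelial genes outside the gate had UMIs in 148 of the 157 cells, and their member Upk1a was seen in 107 cells. Pooled over libraries they took up 10.8 of 10000 UMIs against 14.9 in the low-proliferation cells. They were lower in the healthy and acute libraries, but higher in chronic replicate 1 (38.9 against 36.4) and chronic replicate 2 (26.2 against 18.5, from 1 cell). Smooth muscle genes had UMIs in 92 cells (2.38 against 2.49 of 10000), mural genes in 37 (0.449 against 0.263) and endothelial genes in 14 (0.194 against 0.0965). The list of 9 macrophage genes, among them Cd74 and C1qb, took up 14.9 and 19.1 of 10000 UMIs in the proliferating cells of the healthy libraries against 1.47 and 2.81 in their low-proliferation cells. It took up 0.238 and 1.26 in the acute libraries, against 0.571 and 1.77. In healthy replicate 1, 287 of the 296 macrophage UMIs lay in 4 cells, 238 of them in a single cell, and in healthy replicate 2, 79 of 81 lay in 1 cell. In the gene comparison described further on, Cd74 (1.22) and C1qb (1.85) were the 2 of 8 tested macrophage genes that were higher, beside 7.56% of all genes. With doublet calls left out 0 of 7 were higher, beside 753 of 9359 over all genes. With libraries of at least 5 proliferating cells 7 of 9 were higher, beside 720 of 10326. The keratins of the gate amounted to 1.89% and 12.6% of the matrix UMIs in the healthy, 6.44% and 10.9% in the acute and 19.9% and 47.3% in the chronic libraries, against 3.02%, 8.76%, 4.01%, 7.13%, 14.2% and 6.30% in the low-proliferation cells. Set against all UMIs they took up 4.67, 13.5, 10.8, 16.3, 25.4 and 32.4 of 10000 in the proliferating and 8.63, 16.1, 7.605, 15.3, 28.8 and 15.2 in the low-proliferation cells, which is lower in both healthy libraries and chronic replicate 1.

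Doublets, droplets that hold more than 1 cell, were called more often among the proliferating than among the low-proliferation cells in the 3 libraries with at least 10 proliferating cells. Scrublet called 3 of the 26 cells of healthy replicate 1 (11.5%, against 5.18% of the low-proliferation cells), 8 of the 30 of acute replicate 1 (26.7% against 3.55%) and 27 of the 84 of acute replicate 2 (32.1% against 7.24%). It called 0 in the other 3 libraries, against 3.14%, 1.71% and 3.25% of the low-proliferation cells of healthy replicate 2, chronic replicate 1 and chronic replicate 2. Without them the gene comparison gave 753 higher and 557 lower genes.

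To ask how the proliferating cells differ from their resting neighbours, UMIs were summed per library and state in healthy replicate 1, acute replicate 1 and acute replicate 2, and both states were then fitted in edgeR, with a quasi-likelihood test and the library as a block. The other 3 libraries had fewer than 10 proliferating cells and enter as values only. Of 9876 genes tested, 747 were higher (7.56%) and 555 lower (5.62%) in the proliferating cells at a Benjamini-Hochberg adjusted p below 0.05, which is 13.2% in either direction. DESeq2 gave another split, with 558 higher and 212 lower. Against cells nearest in UMIs 690 of 6796 genes were higher and 371 lower. With libraries of at least 5 proliferating cells 720 of 10326 were higher and 649 lower, and without the library block 411 of 9260 and 31. These are the backgrounds for counts from those fits below. The median log2 fold change of all tested genes was −0.06. Levels are given as UMIs of the summed cells scaled to a total of 1000000 (CPM), and fold changes as log2 of proliferating over low-proliferation cells with their standard error (SE). The 19 genes of the gate were left out of the tests. Because cells with many UMIs of 4 cycle genes were picked, genes that move with the cell cycle had to be higher, and the cycle genes below are described without a test.

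All 50 tested genes of the G2/M list were above the low-proliferation cells past the threshold, beside a background of 7.56% for all genes, and their median log2 fold change was 5.38. The 14 kinetochore and checkpoint genes (median 5.94), the 21 spindle and cytokinesis genes (5.87) and the 15 genes of chromosome structure (3.17) were all above as well. Of 42 S-phase genes 38 were above (median 2.99), and of 23 genes of replication licensing and DNA synthesis 22 (median 2.94). None of these counts is a finding, since the choice of the cells fixed their direction. Their sizes depend on the same choice, so sizes and exceptions are given as a description.

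Prc1, which bundles the microtubules of the central spindle, measured 320 CPM in the proliferating cells of healthy replicate 1, 229 in acute replicate 1 and 350 in acute replicate 2, against 1.75, 2.67 and 2.46 in the low-proliferation cells (log2 fold change 7.07, SE 0.25). Cdk1, the kinase that starts mitosis, measured 254, 216 and 264 CPM against 0.376, 4.81 and 4.25 (6.37, SE 0.34). Cdc20, the activator of the anaphase-promoting complex, measured 241, 164 and 157 CPM against 4.51, 3.74 and 3.02 (5.57, SE 0.27). These mitotic genes were nearly absent from the low-proliferation cells of all 3 libraries, and the states did not overlap. The limit on proliferation UMIs in the low-proliferation cells favours both.

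Stmn1 measured 2034, 1622 and 2022 CPM against 43.1, 60.5 and 89.5 (4.82, SE 0.17), and in the libraries outside the test 2572 and 2175 CPM in healthy replicate 2 and chronic replicate 1, against 64.2 and 87.8. The 1 cell of chronic replicate 2 had 0 Stmn1 UMIs, where 1 UMI would be 216 CPM. Cenpa, the histone variant of centromeres, measured 606, 438 and 557 CPM against 4.64, 8.56 and 7.26 (6.31, SE 0.21). H2afz, a replication-independent histone variant, measured 5581, 5381 and 4138 CPM against 618, 757 and 513 (2.91, SE 0.13). Hmgb2, a chromatin protein that the study uses as a cycling marker of these cells, measured 1154, 713 and 1172 CPM against 95.1, 87.7 and 98.7 (3.34, SE 0.15). H2afz and Hmgb2 were thus present in the low-proliferation cells too, Cenpa hardly, and the spread among libraries was small beside the difference between states.

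The largest differences outside the cycle lists also belonged to genes of cell division. Pbk, a mitotic kinase, measured 359, 255 and 205 CPM against 0.251, 1.07 and 1.48 (7.83, SE 0.34). Depdc1a (8.04, SE 0.72), Casc5, which anchors the kinetochore (7.77, SE 0.68), and Ska1, which couples it to microtubules (7.57, SE 0.61), followed the same pattern. Mxd3, a repressor of the Myc network, had 7.43 (SE 0.38), Shcbp1 7.28 (SE 0.60), Cdca5, which protects sister cohesion, 7.19 (SE 0.66) and Esco2, which establishes it, 6.76 (SE 0.47). The kinase Melk had 6.60 (SE 0.75). Low-proliferation cells of healthy replicate 1 had 0 UMIs of Depdc1a, Casc5, Esco2 and Melk, so these fold changes depend on the prior count of the fit.

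Many genes of G2/M share promoter letters, and the stretches where these lie are shown for 5 genes whose levels are given here or that chose the cells. RefSeq promoters (GRCm38.p6, 250 bases before to 50 after the start) were searched on both strands for the cell cycle homology region (CHR, TTTGAA or TTCGAA), the CCAAT box (CCAAT) and E2F sites (TTTCCCGC, TTTGGCGC, TTTCGCGC or TTTGCCGC). Each line holds the 160 bases before the start, chosen after the positions were seen, 5′ to 3′ on the strand of the gene, with CHR and CCAAT matches in capitals. They are Ube2c at chr2:164769769-164769928 (+), Top2a at chr11:99024190-99024349 (−), Prc1 at chr7:80294291-80294450 (+), Cdc20 at chr4:118437344-118437503 (−) and Cdk1 at chr10:69352913-69353072 (−).
Ube2c: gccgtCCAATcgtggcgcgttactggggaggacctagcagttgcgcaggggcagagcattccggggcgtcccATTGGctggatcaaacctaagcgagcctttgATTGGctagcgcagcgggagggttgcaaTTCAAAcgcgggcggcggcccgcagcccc
Top2a: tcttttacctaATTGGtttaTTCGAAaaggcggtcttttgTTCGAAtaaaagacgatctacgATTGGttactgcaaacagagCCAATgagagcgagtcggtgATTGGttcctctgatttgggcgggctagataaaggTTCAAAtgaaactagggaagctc
Prc1: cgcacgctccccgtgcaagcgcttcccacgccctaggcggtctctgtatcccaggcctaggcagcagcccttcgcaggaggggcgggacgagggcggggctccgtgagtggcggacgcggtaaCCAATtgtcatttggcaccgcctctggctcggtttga
Cdc20: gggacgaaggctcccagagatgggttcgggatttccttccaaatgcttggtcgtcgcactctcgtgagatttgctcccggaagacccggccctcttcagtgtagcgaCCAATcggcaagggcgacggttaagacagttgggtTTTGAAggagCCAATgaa
Cdk1: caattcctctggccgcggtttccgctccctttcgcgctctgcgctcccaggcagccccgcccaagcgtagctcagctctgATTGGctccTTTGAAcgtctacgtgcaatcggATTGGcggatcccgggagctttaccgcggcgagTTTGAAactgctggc
The CHR lay 29 bases before the start in Ube2c, 18 in Cdc20, and 15 and 71 in Cdk1, counted from its leftmost base as printed. Top2a held matches at 23, 120 and 140 bases and 4 CCAAT boxes, and in Prc1 only a CCAAT box lay in the stretch shown.

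Of the G2/M list, 46 genes had a promoter in the table, and 36 of them (78.3%) held a CHR, against 21.7% of all 27025 genes. The share was 69.2% of the kinetochore and 73.3% of the spindle genes, but 19.4% of the S-phase and 24.0% of the matrix genes. A CCAAT box lay in 76.1% of the G2/M and 71.0% of the S-phase promoters, against 41.1% of all genes. An E2F site lay in 12 of 31 S-phase promoters (38.7%) and 9 of 20 licensing promoters (45.0%), against 6.52% of the G2/M promoters and 2.60% of all genes. The G2/M and S-phase lists thus differed in their shares of CHR and E2F letters but not by much in CCAAT boxes, which lay in 44.0% of the matrix promoters, and a match is a description of the promoter and not a bound site.

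Some S-phase genes with E2F letters are shown for contrast, with the E2F matches in capitals, in the same layout. They are Mcm5 at chr8:75109349-75109508 (+), Mcm6 at chr1:128359706-128359865 (−) and Hells at chr19:38930830-38930989 (+).
Mcm5: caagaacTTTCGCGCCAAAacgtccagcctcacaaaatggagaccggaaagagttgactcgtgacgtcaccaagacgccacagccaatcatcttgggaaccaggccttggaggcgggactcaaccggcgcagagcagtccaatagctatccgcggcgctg
Mcm6: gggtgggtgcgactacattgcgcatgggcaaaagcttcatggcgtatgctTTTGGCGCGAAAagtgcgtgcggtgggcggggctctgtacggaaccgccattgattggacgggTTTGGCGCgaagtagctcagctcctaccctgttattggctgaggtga
Hells: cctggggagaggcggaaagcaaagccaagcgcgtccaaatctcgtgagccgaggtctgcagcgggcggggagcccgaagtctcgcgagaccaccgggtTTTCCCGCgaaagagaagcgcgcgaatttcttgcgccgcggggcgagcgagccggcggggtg
Mcm5, a subunit of the replicative helicase, held 2 overlapping matches on opposite strands at 149 and 153 bases. Its level was 52.2, 52.3 and 50.01 CPM against 3.38, 10.7 and 3.63 (log2 fold change 3.34, SE 0.41). Mcm6 of the same helicase measured 91.3, 45.8 and 57.1 CPM against 12.4, 16.1 and 5.97 (2.64, SE 0.36). Hells, a chromatin remodeller of S phase, measured 124, 98.1 and 87.5 CPM against 5.39, 10.2 and 3.63 (4.15, SE 0.34).

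Other genes of DNA synthesis varied in size. Rrm2, the S-phase subunit of ribonucleotide reductase, measured 554, 334 and 223 CPM against 4.64, 13.4 and 3.32 (5.92, SE 0.26). Pcna, the sliding clamp of the polymerases, measured 156, 170 and 83.9 CPM against 37.0, 26.2 and 21.6 (2.09, SE 0.23). Cdc6, which loads the helicase onto origins in G1, was the single S-phase gene below 0, at 32.6, 13.1 and 17.9 CPM against 21.6, 26.2 and 21.2 (−0.24, SE 0.40), and its sign turned when low-proliferation cells were matched on UMIs (0.30).

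Cyclins and cyclin-dependent kinases (CDKs) differed by the phase they serve. The mitotic cyclins Ccnb2 (411, 235 and 252 CPM against 2.00, 2.67 and 2.09), Ccnb1 (log2 fold change 6.53, SE 0.42) and Ccna2 (6.40, SE 0.36) were far above the low-proliferation cells. The G1/S cyclins Ccne2 (4.94, SE 0.59) and Ccne1 (2.95, SE 0.42) were above as well, as were Cdk2 (2.05, SE 0.31) and Cdk4 (0.92, SE 0.16). The D-type cyclins, which couple growth factor signals to the cycle, were not. Ccnd2 measured 84.8, 176 and 87.5 CPM against 130, 216 and 161 (−0.73, SE 0.19), Ccnd1 104, 111 and 75.0 CPM against 99.2, 104 and 114 (−0.34, SE 0.21), and Ccnd3 had 0.16 (SE 0.16). Ccnd2 was lower in all 3 libraries, while Ccnd1 was lower in only 1.

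CDK inhibitors and pocket proteins also split. Cdkn2c, which binds Cdk4, measured 261, 170 and 252 CPM against 6.52, 8.56 and 8.68 (4.81, SE 0.24), Cdkn2d measured 489, 275 and 261 against 46.0, 62.0 and 43.6 (2.65, SE 0.19), and the phosphatase gene Cdkn3 had 7.32 (SE 0.40). Cdkn2a, the senescence-associated p16 and p19 locus, measured 45.6, 52.3 and 64.3 CPM against 9.15, 2.67 and 22.8 (1.99, SE 0.38). Cdkn1a, the p53 target that arrests the cycle, measured 763, 3394 and 1390 CPM against 571, 2969 and 860 (0.34, SE 0.13). Cdkn1a was thus abundant in both states and lay slightly above in all 3 libraries, but below in the libraries outside the test, at 198 CPM against 485 in healthy replicate 2, 2544 against 3868 in chronic replicate 1 and 865.6 against 2459 in chronic replicate 2. Among the regulators that drive these programs, Foxm1 (5.81, SE 0.55), E2f1 (3.03, SE 0.31) and the pocket protein Rbl1 (2.36, SE 0.47) were above, while Myc measured 58.7, 39.2 and 14.3 CPM against 84.1, 62.0 and 12.2 (−0.44, SE 0.32).

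UMIs of G2/M genes outnumbered those of S-phase genes in the proliferating cells, as they did in the low-proliferation cells. Without the 4 genes of the gate they held 3016 S-phase and 9004 G2/M UMIs, an S share of 25.1%, and 137 cells had more G2/M than S UMIs and 17 the reverse. The S share was 30.1% and 12.5% in the healthy, 30.5% and 23.3% in the acute and 21.9% and 12.5% in the chronic libraries, the last from 1 cell. In the low-proliferation cells it was 33.9%, 28.9%, 34.3%, 34.6%, 30.5% and 30.6%, higher than in the proliferating cells of each library, a direction that the choice by G2/M genes favours. In proliferating urothelial cells chosen by the same 4 genes it was 13.0%, 15.4%, 25.0%, 23.5%, 27.4% and 30.5%. The acute mean of 26.9% ± 5.13 (SD, n = 2) lay −3.21 percentage points from healthy replicate 1, a single library with no spread of its own, so no test is given.

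**Figure D2:**
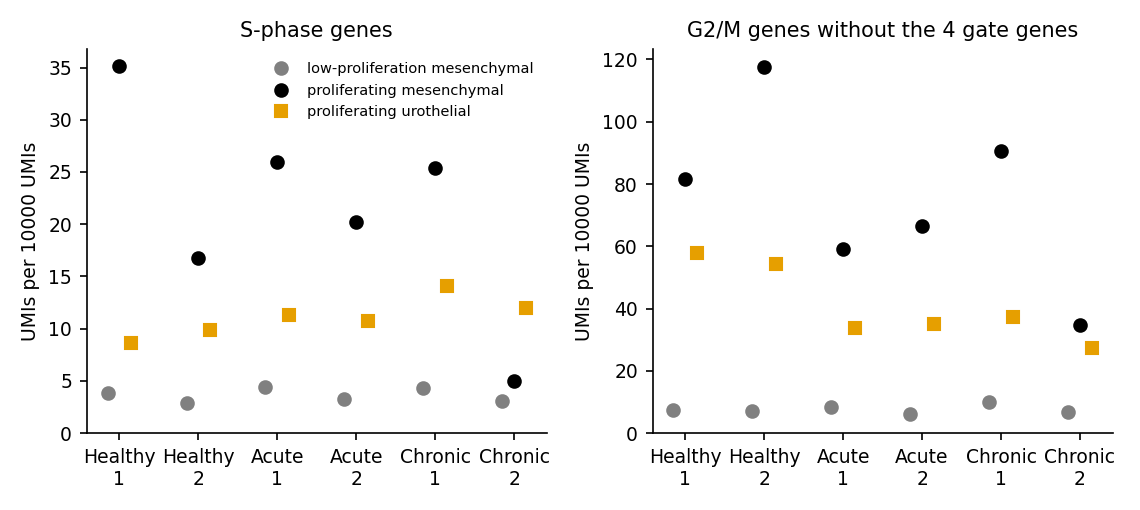
UMIs of the S-phase list (left) and of the G2/M list without the 4 genes of the gate (right), per 10000 UMIs, in each library for low-proliferation mesenchymal cells (grey), proliferating mesenchymal cells (black) and proliferating urothelial cells (orange). The proliferating mesenchymal cells lie above the low-proliferation cells for both lists in every library, most narrowly for S-phase genes in chronic replicate 2, where the 1 cell has 4.98 against 3.05.

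Some matrix genes were lower in the dividing cells, most of them by modest amounts. None of the following genes took part in choosing the cells. Of 33 tested matrix genes 12 were lower and 0 higher, beside a background of 5.62% for lower genes, with 32 of the 33 below 0 and a median log2 fold change of −0.47. Sparc measured 6735, 5303 and 5515 CPM in the proliferating cells of healthy replicate 1, acute replicate 1 and acute replicate 2, against 10750, 6936 and 9282 (−0.71, SE 0.12, edgeR adjusted p = 9.85e-05). Fbln5, which organizes elastic fibres, measured 163, 71.9 and 143 CPM against 391, 181 and 372 (−1.42, SE 0.18, edgeR adjusted p = 3.73e-07). Both were lower in each library, and both were also lower in healthy replicate 2 (3825 against 5478 CPM for Sparc and 165 against 344 for Fbln5) and in chronic replicate 1 (2298 against 4261 and 123 against 303).

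Further lower matrix genes were the collagens Col12a1 (−0.84), Col5a1 (−0.57) and Col6a3 (−0.47), the microfibril gene Mfap2 (−0.96) and the proteoglycan genes Prelp (−0.79) and Ogn (−2.62). Fbln1 (−0.66), Sparcl1 (−0.74), Tnxb (−0.72) and Col14a1 (−0.56) were lower in the comparison with all low-proliferation cells, but lay at or above 0 against cells nearest in UMIs. That comparison called 11 matrix genes lower and 1 higher, with a median of −0.25, and without the library block 1 was lower and 0 higher. Fn1 (−0.41), Bgn (−0.31) and Vcan (−0.47) did not pass the threshold. The collagens of the gate itself, given without a test, showed 5314, 3237 and 4242 CPM of Col1a1 against 9074, 4670 and 6298.

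Genes that process the matrix followed, with 7 of 18 lower and 0 higher (median −0.42), beside 5.62% lower over all genes, and 0 passed without the library block. Lox, which crosslinks collagen and elastin, measured 39.1, 13.1 and 80.4 CPM against 144, 43.9 and 115 (−1.01, SE 0.26, edgeR adjusted p = 0.00618). Loxl1 (−0.68), the collagen chaperone Serpinh1 (−0.47), the procollagen enhancer Pcolce (−0.46), Adamts2 (−0.57) and the inhibitors Timp2 (−0.58) and Timp3 (−0.60) were the other 6. Mmp2 (−0.40) did not pass, and P4hb, a subunit of prolyl hydroxylase, had 0.31 without passing. Against cells nearest in UMIs 1 gene of this list was lower.

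Markers of both stromal lineages were among the lower genes, but against cells nearest in UMIs the median of the fibroblast markers turned sign and that of the myofibroblast markers did not. Of 13 fibroblast markers 10 were lower (median −0.70), beside a background of 5.62%. Ly6a, the Sca-1 antigen of progenitor-like fibroblasts, measured 1702, 1778 and 1684 CPM against 2568, 3213 and 3285 (−0.91, SE 0.13, edgeR adjusted p = 3.11e-06), and stayed lower in all 13 alternative fits (−1.22 to −0.44). Inmt, a methyltransferase, measured 26.1, 39.2 and 26.8 CPM against 230, 109 and 233 (−2.89, SE 0.27, edgeR adjusted p = 1.88e-09), and was lower in all 13 as well. Pi16 measured 1402, 595 and 279 CPM against 1979, 777 and 490 (−0.67, SE 0.14, edgeR adjusted p = 6.29e-04), yet had 0.12 against cells nearest in UMIs.

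Clec3b, Gsn, Mfap5, Scara5 and Cd34 turned sign in the same way, so the fibroblast markers had a median of 0.12 in that comparison, with 2 of 13 lower and 0 higher. Igfbp6 (−0.99), Ly6c1 (−0.89) and Has1 (−1.14) stayed below 0 there. The low-proliferation cells nearest in UMIs were more often myofibroblast-marked, 60.8%, 39.8% and 93.6% in the 3 libraries against 51.5%, 31.5% and 75.6% of all low-proliferation cells. The part of this lineage mix in the difference was not tested.

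Of 13 myofibroblast markers 6 were lower and 0 higher (median −0.64), beside 5.62% of all genes lower. Against cells nearest in UMIs 7 of 12 were lower (−1.09), beside 371 of all 6796 genes. Car3 measured 561, 739 and 2002 CPM against 1941, 1610 and 4802 (−1.47, SE 0.14, edgeR adjusted p = 3.13e-09). Cxcl14, a chemokine of these cells, measured 1356, 1301 and 3577 CPM against 3260, 2250 and 7500 (−1.14, SE 0.13, edgeR adjusted p = 8.60e-08). Tagln, an actin-binding contractile gene, measured 97.8, 85.0 and 588 CPM against 299, 165 and 1160 (−1.19, SE 0.17, edgeR adjusted p = 6.15e-06).

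Acta2 measured 287, 203 and 807 CPM against 502, 295 and 1194 (−0.72, SE 0.15, edgeR adjusted p = 8.49e-04), although it was detected in more of the proliferating cells. Myl9 (−0.83) and Actg2 (−0.69) were lower too, and Tpm2 (0.39) did not pass. Of the 4 genes behind the lineage call, Car3, Acta2 and Mfap5 were thus lower, and Cd34 had −0.44 without passing (edgeR adjusted p = 0.0691). Without the library block 2 fibroblast markers and 0 myofibroblast markers passed.

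**Figure D3:**
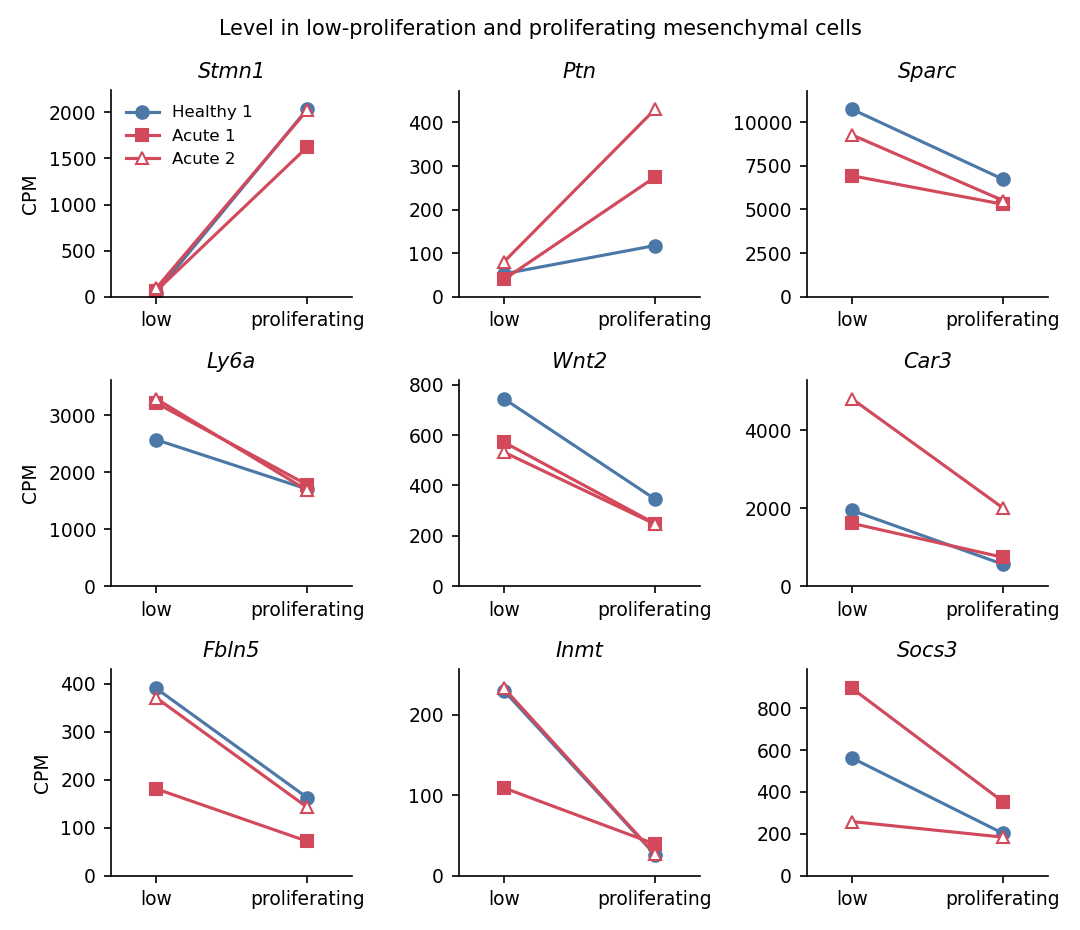
Level (CPM, linear axis from 0) of 9 genes in low-proliferation and proliferating mesenchymal cells of healthy replicate 1 (blue), acute replicate 1 (filled red) and acute replicate 2 (open red), each line joining the 2 states of 1 library. Stmn1 and Ptn are higher in the proliferating cells of every library, and Sparc, Ly6a, Wnt2, Car3, Fbln5, Inmt and Socs3 are lower in every library.

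**Figure D4:**
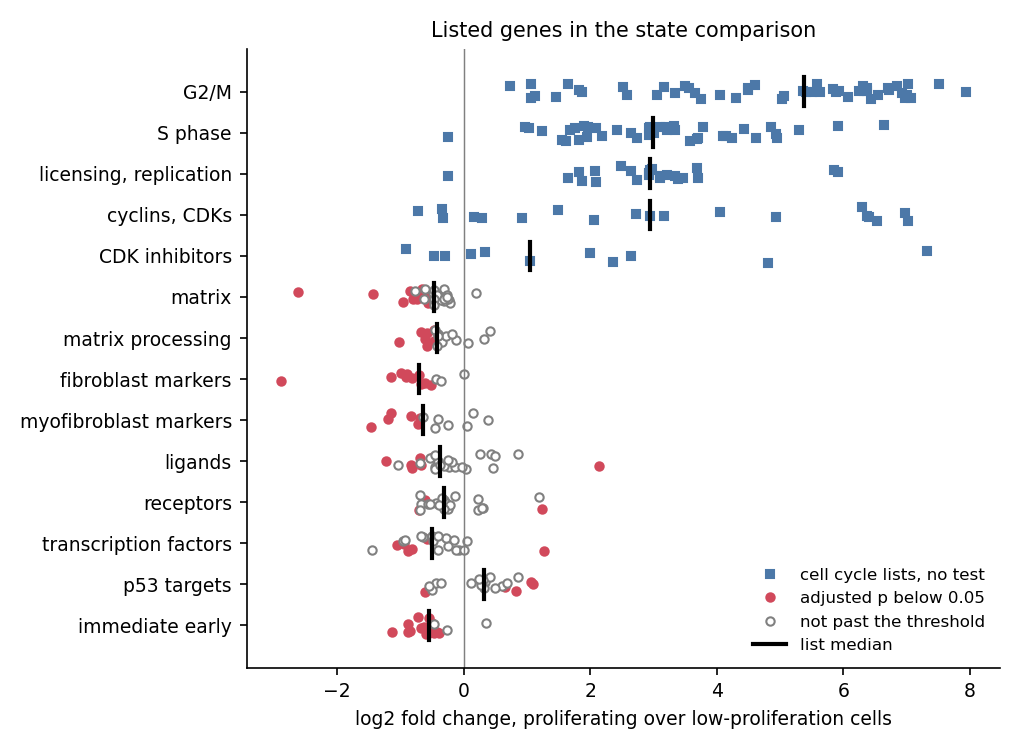
Log2 fold change of each tested gene of 14 lists, proliferating over low-proliferation cells, with the list median as a black bar. Blue squares are cell cycle lists, described without a test, red circles passed an adjusted p of 0.05 and open circles did not. The cell cycle lists shown are G2/M, S phase, licensing and replication, cyclins and CDKs, and CDK inhibitors, and the medians of the lists shown run from 5.38 for G2/M to −0.70 for fibroblast markers.

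Growth factors made by the cells split around 1 gene. Of 27 tested ligands 1 was higher and 6 lower (median −0.38), beside 7.56% and 5.62% of all genes, and without the library block 1 was higher and 1 lower. Ptn (ENSMUSG00000029838), which encodes the heparin-binding growth factor pleiotrophin, measured 117, 275 and 430 CPM against 52.5, 39.6 and 80.0 (log2 fold change 2.14, SE 0.21, edgeR adjusted p = 4.58e-09). It was higher in every library of the test and in 13 of 13 alternative fits (1.52 to 2.47). Outside the test it measured 33.0 CPM against 12.4 in healthy replicate 2 and 41.0 against 0.738 in chronic replicate 1, each from a single UMI in the proliferating cells. The 1 proliferating cell of chronic replicate 2 had 0 Ptn UMIs, against 0.565 of 10000 UMIs in its low-proliferation cells. Ptn was detected in 67 of the 157 cells (42.7%), against 10.4% of the low-proliferation cells and 5.49% of the deeper proliferating urothelial cells.

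Ptn was followed within the lineage calls, a breakdown added after its values were seen. Among myofibroblast-marked cells it took up 1.34 of 10000 UMIs in the proliferating and 0.634 in the low-proliferation cells of healthy replicate 1, where it was detected in 6 of 10 proliferating cells. It took up 6.02 and 0.840 in acute replicate 1, with 6 of 8 cells positive and 19 of the UMIs in 1 cell, and 3.52 and 0.684 in acute replicate 2, with 46 of 66 positive. Among fibroblast-marked cells it took up 0.232 and 0.0471 in healthy replicate 1, 0 and 0 in acute replicate 1 and 0.327 and 0.0380 in acute replicate 2. The Ptn UMIs thus lay mostly in myofibroblast-marked cells, and the difference between states was also seen inside that call.

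**Figure D5:**
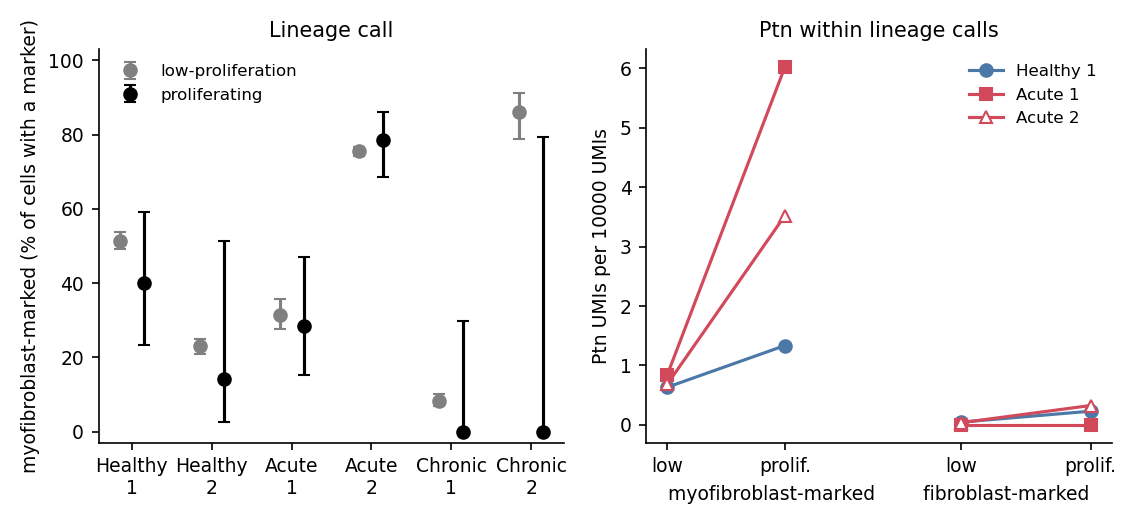
Left, share of myofibroblast-marked cells among cells with a lineage marker in each library (percent, with 95% Wilson intervals) for low-proliferation (grey) and proliferating (black) cells. Right, Ptn UMIs per 10000 UMIs by lineage call and state in healthy replicate 1 (blue), acute replicate 1 (filled red) and acute replicate 2 (open red). The lineage share ranges from 8.39% to 86.2% between libraries in the low-proliferation cells, and Ptn is highest in myofibroblast-marked proliferating cells, up to 6.02 in acute replicate 1.

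Wnt2 (ENSMUSG00000010797), a Wnt ligand made by stromal cells, moved the other way. It measured 346, 248 and 246 CPM against 744, 572 and 532 (−1.23, SE 0.15, edgeR adjusted p = 2.40e-07), and was lower in 13 of 13 alternative fits (−1.50 to −0.72). Outside the test it measured 330 CPM against 1001 in healthy replicate 2, 328 against 661 in chronic replicate 1 and 432.8 against 413 in chronic replicate 2, where the 1 cell lay slightly above. Pooled over all libraries, Wnt2 was detected in 67.5% of the proliferating and 77.2% of the shallower low-proliferation cells. Its share was higher in the proliferating cells of healthy replicate 1 (92.3% against 88.9%) and in the 1 cell of chronic replicate 2, and lower in the other libraries.

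The other ligands that were lower were Bmp4 (−0.67) and Bmp2 (−0.69), which signal to the urothelium, the cytokine genes Cxcl1 (−0.82) and Il6 (−0.84), and Gas6 (−0.48), a ligand of TAM receptors. Bmp4 measured 424, 183 and 248 CPM against 510, 372 and 367. Cxcl1 differed more between libraries than between states, at 548, 314 and 3.57 CPM against 691, 634 and 13.0. Against cells nearest in UMIs 3 of 21 ligands were lower, beside 371 of all 6796 genes.

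Few receptors and transcription factors passed. Of 23 receptor genes 1 was higher and 2 lower, about the background of 7.56% and 5.62%, and none passed against cells nearest in UMIs or without the library block. Pdgfra measured 78.2, 105 and 157 CPM against 179, 144 and 192 (−0.61, SE 0.20, edgeR adjusted p = 0.0357), and Fgfr1, a fibroblast growth factor receptor, 104, 91.5 and 64.3 CPM against 170, 165 and 86.0 (−0.71, SE 0.21, edgeR adjusted p = 0.0183). Notch1 measured 52.2, 85.0 and 105 CPM against 27.6, 46.5 and 32.2 (1.24, SE 0.26, edgeR adjusted p = 7.68e-04). It was detected in 86.1% of the proliferating urothelial cells, and the urothelial gene Epcam was also higher (1.26, SE 0.37, edgeR adjusted p = 0.0187) while the urothelial genes Upk3a (−0.79) and Psca (−0.85) were lower. With doublet calls left out no receptor and no gene of the urothelial list passed the threshold as higher. Only the threshold was lost, since Notch1 stayed above 0 in all 13 alternative fits (0.46 to 1.54). Epcam did so in the 12 that tested it (0.25 to 1.64).

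Of 22 transcription factors 1 was higher and 5 lower, beside the same background, and 0 passed without the library block. Tcf21 measured 228, 242 and 296 CPM against 332, 335 and 827 (−1.06, SE 0.18, edgeR adjusted p = 5.98e-05). Osr1 (−0.88), Meis2 (−0.81), Hoxa11 (−0.94) and Klf4 (−0.58) were the other 4. Snai2, a factor of migratory mesenchyme, measured 13.0, 45.8 and 26.8 CPM against 10.7, 13.4 and 9.60 (1.27, SE 0.42, edgeR adjusted p = 0.0440). Against cells nearest in UMIs 0 were higher and 1 lower.

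Stress-related genes went both ways. Of 20 p53 targets 4 were higher and 1 lower, with 15 of 20 above 0 (median 0.33), beside a background of 7.56% higher and 5.62% lower. Trp53inp1 measured 26.1, 170 and 157 CPM against 22.2, 108 and 69.3 (0.82, SE 0.22, edgeR adjusted p = 0.00831), and Ccng1 65.2, 464 and 220 CPM against 57.4, 273 and 119 (0.65, SE 0.17, edgeR adjusted p = 0.0104). Eda2r (1.09) and Polk (1.07), a translesion polymerase, were the other 2 that were higher, and Btg2, an antiproliferative gene, was lower (−0.61). DESeq2 called 0 of the list higher, edgeR without the library block 0 and edgeR with libraries of at least 5 proliferating cells 0. Against cells nearest in UMIs edgeR called 9 of 19 higher and 2 lower, beside 690 and 371 of all 6796 genes.

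Immediate early genes, which respond within minutes to growth factors, stress or tissue dissociation, were lower for 15 of 18 and higher for 0 (median −0.55), beside a background of 5.62%. Junb measured 1500, 2334 and 897 CPM against 2848, 3358 and 1641 (−0.87, SE 0.13, edgeR adjusted p = 7.67e-06), and Fos 3019, 3380 and 1566 CPM against 4646, 4927 and 2082 (−0.62, SE 0.12, edgeR adjusted p = 4.98e-04). Socs3, a feedback inhibitor of cytokine signals, measured 202, 353 and 184 CPM against 562, 895 and 258 (−1.13, SE 0.17, edgeR adjusted p = 1.73e-05). Healthy replicate 2 and chronic replicate 1 showed the same direction for all 3 genes, with 627 against 3072 and 3282 against 5215 CPM of Junb. Against cells nearest in UMIs 10 of 18 were lower, beside 371 of all 6796 genes, and without the library block 0 passed the threshold.

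The largest falls by rank were of mixed kinds. Hbb-bs, a globin of red cells, measured 32.6, 0 and 0 CPM against 233, 27.8 and 0.308, which is RNA of another cell type. Chodl, a lectin-like membrane protein, measured 58.7, 26.1 and 17.9 CPM against 184, 157 and 104 (−2.34, SE 0.27, edgeR adjusted p = 7.57e-08). Ogn, which encodes osteoglycin, measured 13.0, 0 and 21.4 CPM against 65.3, 48.7 and 113 (−2.62, SE 0.35, edgeR adjusted p = 1.25e-06), from 15 UMIs in all 157 cells. Hist1h2bc, a histone gene whose mRNA can be polyadenylated outside S phase, measured 78.2, 78.5 and 107 CPM against 154, 343 and 413 (−1.89, SE 0.20, edgeR adjusted p = 2.54e-08). Chodl, Ogn, Hist1h2bc and Tmem150a (−2.16) were lower in 13 of 13 alternative fits, whereas Cxcl2 (−1.96), Lims2 (−1.83), Rasl11a (−1.73), Ifit1 (−1.71) and Hbb-bs (−3.14) lost the threshold in some.

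Whether the dividing cells themselves differed with injury was asked by comparing both acute libraries with healthy replicate 1, a single library, so the healthy arm is assumed to vary like the acute one. Of 3664 genes tested, edgeR called 0 (0% in either direction) at an adjusted p below 0.05 and had 169 at an unadjusted p below 0.05, and DESeq2 called 0 and had 57. In simulated counts with 200 genes changed 4-fold, this design recovered 39.5% of them. The values below are therefore given with no direction claimed. Among the largest differences with both acute libraries on the same side of the healthy one was Lyz2, a gene of the macrophage list described above. It measured 385 CPM in healthy replicate 1 and 0 and 12.5 in the acute libraries. Of the 69 Lyz2 UMIs in all 157 proliferating cells, 55 lay in 1 cell. On the other side, Dcxr, a carbonyl reductase, measured 32.6 CPM against 405 and 282, Cryab, a small heat shock protein, 26.1 against 261.5 and 212.5, and Gsto1, a glutathione transferase, 45.6 against 281 and 443. The p53 targets Phlda3 (176 against 719 and 757 CPM), Bax (228 against 994 and 839) and Trp53inp1 (26.1 against 170 and 157) and the interferon gene Ifit3 (0 against 65.4 and 145) were also at higher values in both acute libraries, and none of them passed the adjusted threshold. Healthy replicate 2, with 7 cells, measured 98.9 CPM of Lyz2, 297 of Phlda3, 264 of Bax and 33.0 of Trp53inp1.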

How the data were processed

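Single-cell libraries of bladder mucosa were prepared by the authors with a droplet-based 3′ v2 kit and turned into UMI count tables with Cell Ranger and the mm10 mouse genome. The deposited values are raw UMI counts per gene and cell, with no normalization. The highest mitochondrial share of a barcode was 9.87% to 10% in the libraries, at the limit of 10% in the paper's methods. The paper also describes the removal of doublets. These tables hold 56629 barcodes, 55399 of them with over 500 genes, and both numbers exceed the cells the paper kept after its filters. Barcodes that the paper left out are therefore still in the tables. How many of them it took for doublets is not given in the sources used here. The processing batch of a library is not given in the sources used here. The tables list 15065 to 20180 genes, acute replicate 2 from another gene set, so the 14450 genes common to all were used, and 112 mitochondrial and ribosomal genes were left out of sums. The table of healthy replicate 1 stops within its last line, which was left out, and any gene after that line is missing from every test.

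Cells were gated on raw UMIs as described at the start. UMIs were summed per library and state where a library held at least 10 proliferating cells, and fitted with edgeR 4.0.16 under R 4.3.3 (TMM scaling, filterByExpr, quasi-likelihood test, library block, Benjamini-Hochberg adjustment over all genes tested, 2 residual degrees of freedom, 0.05 threshold). DESeq2 1.42.0 was an alternative. The sums hold the 140 proliferating cells of 3 libraries. In counts simulated for the 9876 genes of this fit, 72.5% of 200 genes changed 4-fold were recovered and 5 unchanged genes were called. Doublets were called with Scrublet in scanpy 1.11.5, at 0.8% per 1000 cells, and kept. The macrophage, mural and other marker lists, the cycle lists and the members themselves were chosen with earlier results of these data known. Named genes were those of the lists plus, in the comparison of states, the 10 largest rises outside and the 10 largest inside the cycle lists and the 10 largest falls, and, between conditions, the 5 largest on each side. Genes named by size of change had to pass the threshold, reach 50 CPM in the higher group and move the same way in every library, which was not asked of genes named from the lists, and some that did are not reported here. As none passed between conditions, the genes named there were chosen after their values were seen, by size. The replicate numbers of the labels mark no stated litter, day or batch, so conditions were compared without pairing them. Promoter sequences came from a RefSeq table of GRCm38.p6.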

Additional observations from a re-analysis of the deposited data

Results flagged for a closer look

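The proliferating minus low-proliferation difference went one way in both healthy libraries and the other way in both acute libraries for 6 measures, and the differences between conditions were not tested. Chronic libraries were not examined for this, since 1 of them had a single proliferating cell. The macrophage list differed by 13.4 and 16.3 UMIs per 10000 in the healthy and by −0.334 and −0.506 in the acute libraries, 15.3 apart on average. Cd74, the invariant chain of antigen-presenting cells, differed by 563 and 1490 CPM against −10.2 and −10.1, which is 1040 apart. C1qb, a complement gene of macrophages, differed by 238 and 4.80 CPM against −9.09 and −2.08, which is 127 apart. In the proliferating cells of healthy replicate 2, 1 UMI is 33.0 CPM, so the sign of C1qb there hangs on 1 UMI. The macrophage UMIs of the healthy proliferating cells lay mostly in 4 cells of replicate 1 and 1 cell of replicate 2. The mural list differed by −0.161 and −0.345 per 10000 against 0.207 and 0.302, which is −0.507 apart and amounts to few UMIs. Cdc6, which licenses replication origins, differed by 11.1 and 50.4 CPM against −13.1 and −3.37, which is 39.0 apart. These values rest on 5 and 2 Cdc6 UMIs in the healthy and 2 and 10 in the acute proliferating cells. Epcam, an adhesion gene of epithelium, differed by −4.88 and −21.0 CPM against 58.6 and 26.1, which is −55.3 apart, beside the higher share of doublet calls among the acute proliferating cells. The Epcam difference of healthy replicate 2 is also smaller than 1 UMI.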

How the results depend on the processing

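Of 1664 values of 129 named genes under alternative settings, 1386 kept direction and side of the threshold, 248 (72 genes) lost the threshold, 11 (5 genes) passed it anew and 19 (16 genes) changed sign. The cause was not tested. Against low-proliferation cells nearest in UMIs the sign turned for Fbln1 (0.16), Col14a1 (0.0104), Sparcl1 (0.40), Tnxb (0.0394), Cd34 (0.32), Mfap5 (0.35), Pi16 (0.12), Clec3b (0.34), Scara5 (0.0843), Gsn (0.29) and Cdc6 (0.30). Cdc6 also turned with at most 2 keratin UMIs (0.25) and with libraries of at least 5 proliferating cells (0.26), the last setting turning Cdkn1a (−0.17) and Ccnd3 (−0.0602) too. Cd74 turned without cells of over 2 macrophage UMIs (−0.27), a setting also chosen after seeing the data. Leaving out 1 library gave −0.47 to 0.0235 for Ccnd1 (positive without acute replicate 2), −0.25 to 2.55 for Cd74 and −0.43 to 3.15 for C1qb (both negative without healthy replicate 1). The 747 higher genes became 380 with at most 2 keratin UMIs, which left 2 libraries in the fit, 411 without the library block and 426 to 785 without 1 library, the lowest without acute replicate 2. The 555 lower genes became 212 with DESeq2, 266, 31 and 159 to 564 in the same order. Between conditions, with 0 calls in the main comparison, no filter on low counts gave 22 higher and 16 lower genes. Libraries of at least 5 cells, a setting chosen after seeing the data, gave 0 and 0, with a replicate block 2 and 6, without acute replicate 1 10 and 19, without acute replicate 2 7 and 8, and 0 and 0 without any other library. The acute minus healthy share ranged from 0.823 to 4.75 percentage points without 1 library, was 1.4998 with at most 2 keratin UMIs and 1.96 without doublet calls, and with the replicate block it was 2.79 (exact sign-flip permutation p = 0.5, the smallest possible). The chronic minus healthy share of −0.0881, also its value with the block, became 1.92 after thinning, 0.338 with at most 2 keratin UMIs and −0.542 to 0.366 without 1 library. The myofibroblast-marked difference ranged from −7.22 to 0.0214 without 1 library (positive without healthy replicate 1) and was −15.7 against cells nearest in UMIs. The S share difference ranged from −6.84 to 0.412 (positive without acute replicate 2). A replicate block for the S share and between conditions at 10 cells, and leaving out a library between conditions there, were not run, since the groups share 1 replicate number and no residual degrees of freedom remain. Depth limits the libraries outside the test most, where 1 UMI is 33.0 CPM in healthy replicate 2, 41.0 in chronic replicate 1 and 216 in chronic replicate 2.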
